A study of Mus musculus with 12 samples.

Results

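The genes described here encode the proteins of the cytoplasmic ribosome: every gene whose symbol starts with Rpl or Rps and a digit or with Rplp, plus Rpsa, with pseudogenes and the Rps6k kinases left out. The array measured 76 of them with a probe set annotated to a single gene, of 18820 genes measured that way. They divided into 47 genes of the large subunit and 29 of the small subunit. Core ribosomal proteins made up 67 of the 76. The other 9 were Rpl10l, Rpl32l, Rpl39l, Rpl3l, Rpl7l1, Rps27l, Rps4l, Rps19bp1 and Rps23rg1, which are paralogues or are named after a ribosomal protein. Further genes that meet the rule but were matched to no single-gene probe set were not analysed here.

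RNA came from the medial prefrontal cortex of C57BL/6N mice aged 12 weeks that had been through behavioural testing. On gestation day 17 their mothers were injected into a vein with saline (6 offspring) or with poly(I:C) at 5 mg/kg (6 offspring). Poly(I:C) is man-made double-stranded RNA used as a mimic of viral infection. Litter, sex and array strip are not in the labels, so offspring of 1 mother could not be told from offspring of several. The p-values treat the 12 samples as independent and set each difference against the spread within groups. Littermates among the samples could make them too small. The question was whether expression in the adult offspring differs after the prenatal exposure. The deposited log2 values had array medians from 5.15 to 5.21, and correlations between arrays ran from 0.994 to 0.998. In bulk tissue, fewer cells of a type and less RNA per cell cannot be told apart.

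A ribosome joins a small subunit, which reads the messenger RNA, to a large subunit, which forms the peptide bond. Each is ribosomal RNA clad in many small proteins, most of which are needed in equal numbers. The mRNAs of these proteins typically begin at a cytosine followed by a run of pyrimidines, the terminal oligopyrimidine (TOP) motif, through which mTORC1 signalling and Larp1 control their translation together. Many of the genes also carry small nucleolar RNAs in their introns, which are cut out of the same transcript and guide the chemical modification of ribosomal RNA. In neurons, ribosomes are also found in dendrites and axons, where they serve local protein synthesis.

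The TOP run was visible at the annotated start of some members. The sequences below span 25 bases before and 25 bases from the annotated start, from RefSeq in build GRCm38.p6, with the longest pyrimidine run of each window in capitals. Rps27 is shown because it was the member that passed the test, Rps6 and Rpl15 as members with a long run at the start and hardly any difference, Rpl11 because it came next after Rps27, and Rpl13a and Rps3a1 because the small nucleolar RNAs inside them differed most.
Rps27, chr3:90213624-90213673, minus strand: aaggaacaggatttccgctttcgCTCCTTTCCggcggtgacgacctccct
Rps6, chr4:86857343-86857392, minus strand: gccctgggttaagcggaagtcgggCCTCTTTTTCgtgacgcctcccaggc
Rpl15, chr14:18270962-18271011, minus strand: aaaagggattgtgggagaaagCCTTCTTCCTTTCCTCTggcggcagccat
Rpl11, chr4:136053369-136053418, minus strand: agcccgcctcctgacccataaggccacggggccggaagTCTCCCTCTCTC
Rpl13a, chr7:45128721-45128770, minus strand: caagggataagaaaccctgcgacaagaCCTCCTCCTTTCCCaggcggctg
Rps3a1, chr3:86142644-86142693, minus strand: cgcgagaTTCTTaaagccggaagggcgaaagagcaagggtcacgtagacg
The runs of Rps27, Rps6 and Rpl15 cross the annotated start, those of Rpl11 and Rpl13a begin downstream of it, and the window of Rps3a1 holds only a short run upstream.

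Promoter windows, from 250 bases before to 50 bases after the start, were matched for 62 members with 74 windows. A start at C with 4 or more further pyrimidines was found in 18.9% of the members' windows and in 2.51% of all 32851 windows. With the run allowed to begin within 10 bases of the start, the shares were 55.4% and 30.7%. The letters CCGGAAG, searched on both strands, occurred in 36.5% of the members' windows and 8.86% of all windows. AAGATGG, also on both strands, occurred in 14.9% and 6.34%, and TATAAA in 9.46% and 13.6%. The 39 members with a run near the start had a median log2 difference of -0.01 between poly(I:C) and control offspring, with 25 below 0. The 23 members with a window but no such run had a median of -0.04, with 21 below 0. These letters are descriptions of the windows and show no binding.

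As a group the ribosomal protein genes stayed close to their control level. Rps27, a zinc-finger protein of the small subunit, was lower in the poly(I:C) offspring, by 0.23 on the log2 scale or 1.18-fold. No member was higher. Most of the others lay slightly below their control level: 55 of 76 (72.4%) had a difference below 0, against 48.0% of all 23099 annotated probe sets. These signs are not independent, because the members varied together among animals. With group means removed, the means of the large and small subunit core genes correlated at 0.77 over the 12 samples. The median correlation over pairs of core genes was 0.22. The median log2 difference over the members was -0.03, against 0.00 over all annotated probe sets.

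The test was limma's moderated linear model, fitted to all 23099 annotated probe sets, 2-sided, with Benjamini-Hochberg adjustment and a threshold of 0.05. It called 2.83% of all probe sets in either direction, 0.805% lower and 2.02% higher. Of the members, 1 of 76 was called lower and 0 higher, a share of 1.32%. At an unadjusted p under 0.05, 9 members were lower (11.8%) and 0 higher. Over all probe sets, 19.1% reached that mark in either direction and 7.33% were lower. The groups did not overlap for 1 member, Rps27, and for 2.37% of all probe sets.

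The differences were small in absolute terms. They ran from -0.23 for Rps27 to 0.11 for Rpl32l, and 72 of 76 members (94.7%) lay within 0.1 of 0, compared with 85.3% of all probe sets. For 75 of the 76 members the 95% confidence interval of the difference lay inside a 1.2-fold change either way, which is 0.26 on the log2 scale. The exception was Rps27. Among all probe sets 95.2% met that bound. The median standard deviation among animals of a group was 0.06 over the members and 0.07 over all probe sets.

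**Figure D1:**
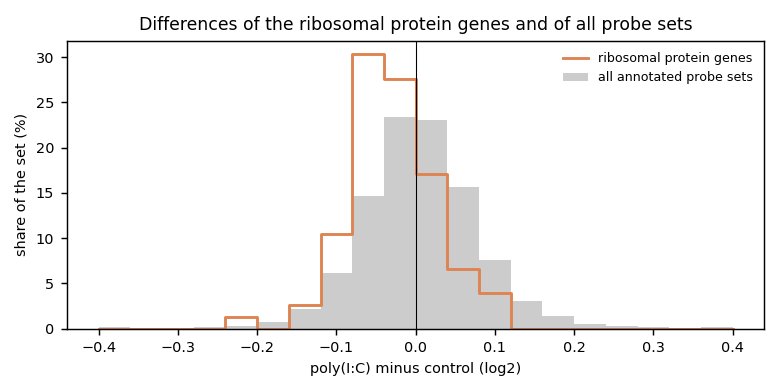
Share of the 76 ribosomal protein genes (line) and of all 23099 annotated probe sets (grey bars), in percent, by log2 difference between poly(I:C) and control offspring; the 59 probe sets beyond 0.4 either way are counted in the outermost bins. The line sits to the left of the bars, with 55 of 76 members below 0 and a single member near -0.23.

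**Figure D2:**
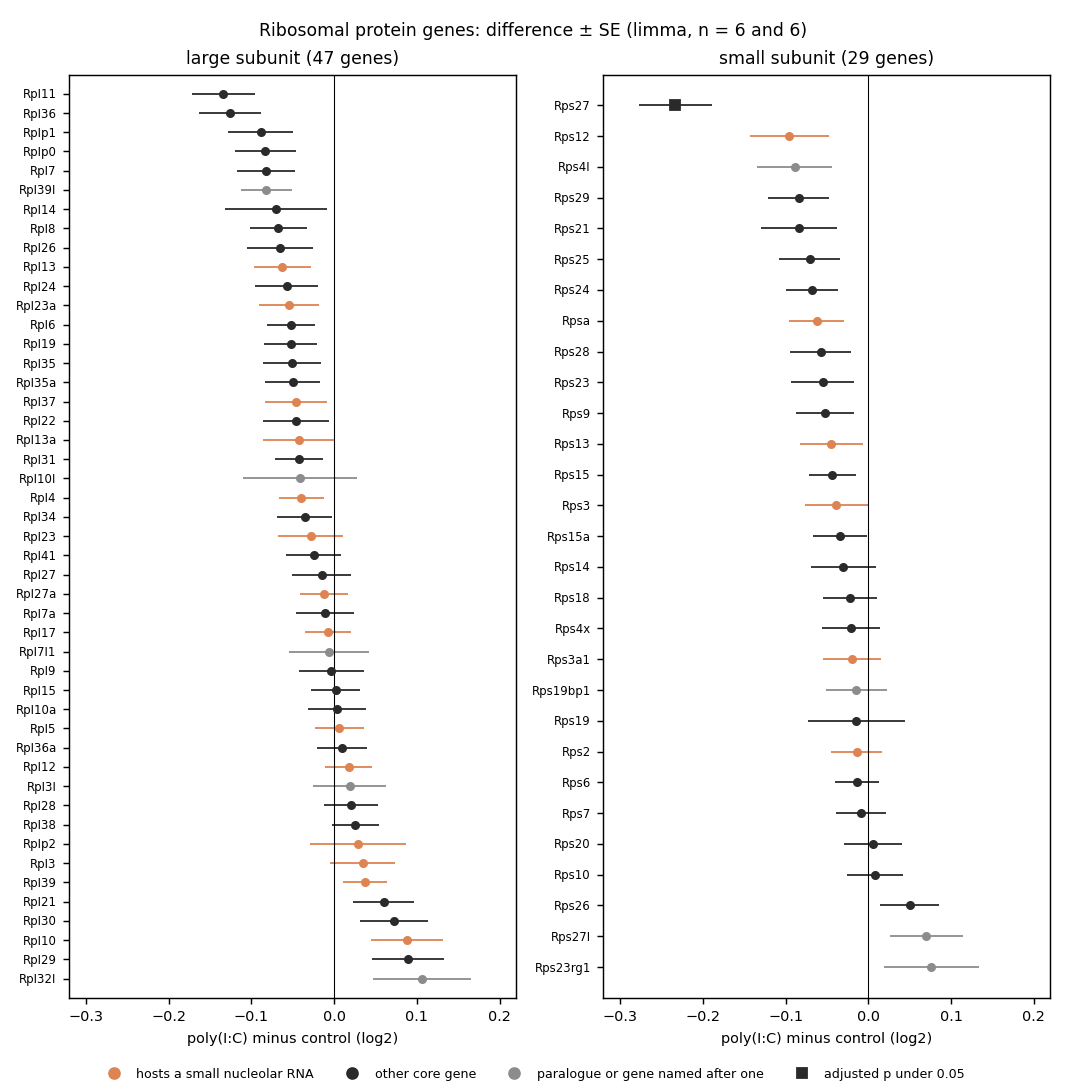
Log2 difference between poly(I:C) and control offspring of each member, with the standard error of the limma fit (6 samples per group), for the large subunit on the left and the small subunit on the right. Genes hosting small nucleolar RNAs are orange, other core genes black and paralogues or genes named after a ribosomal protein grey; the square marks Rps27, the member with an adjusted p under 0.05.

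Rps27 (probe set 10499748) had control values of 7.83, 7.95, 7.86, 7.80, 7.83 and 7.89. In the poly(I:C) offspring it was 7.49, 7.60, 7.65, 7.78, 7.55 and 7.68. The highest poly(I:C) value (replicate 4) lay just under the lowest control value (replicate 4 of the controls), and the groups did not overlap. The mean fell from 7.86 ± 0.05 to 7.63 ± 0.10 (SD, n = 6 each), a difference of -0.23 ± 0.04 (SE) with a limma adjusted p of 0.0134. The 95% confidence interval ran from -0.33 to -0.14. Without variance moderation the adjusted p was 0.0618, and the call ended. Every poly(I:C) sample was below the mean of the controls.

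The second probe set of Rps27 (10597490) gave the same picture. Its control values ran from 7.67 to 7.82 with a median of 7.72, and its poly(I:C) values from 7.35 to 7.56 with a median of 7.45. The groups were again apart. The difference was -0.27, with a limma adjusted p of 0.00479. Mouse ribosomal protein genes have many processed copies in the genome, and Rps27 has a retrogene copy, Rps27rt, which had no single-gene probe set. Which of the copies each probe set reads was not settled here. Rps27l, the paralogue of Rps27 that p53 is known to induce, had values from 6.30 to 6.54 in the controls and 6.36 to 6.54 in the poly(I:C) offspring. Those ranges overlapped, and its difference was 0.07 ± 0.04 with a limma adjusted p of 0.404.

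Rpl11 and Rpl36 of the large subunit came next, and neither passed the threshold with the values as deposited. Rpl11, which together with Rpl5 and 5S ribosomal RNA can bind and inhibit Mdm2, ranged from 8.65 to 8.89 in the controls (median 8.85) and from 8.64 to 8.72 in the poly(I:C) offspring (median 8.68). Control replicate 4, at 8.65, lay among the poly(I:C) samples, while the other controls lay above them all. The difference was -0.13 ± 0.04 with a limma adjusted p of 0.0658. Without control replicate 4 the limma adjusted p was 0.0121. That sample was the lowest control, so a lower p without it follows from that choice. Leaving out any other single sample did not call Rpl11. All 6 probe sets of Rpl11 were lower, by -0.15 to -0.10, and 1 of them (10528544) passed with an adjusted p of 0.0264.

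Rpl36 ranged from 9.84 to 10.02 in the controls (median 9.93) and from 9.73 to 9.86 in the poly(I:C) offspring (median 9.83). Here too control replicate 4 was the only control inside the range of the poly(I:C) group. The difference was -0.13 ± 0.04, with a limma adjusted p of 0.0692, and 0.0384 without control replicate 4. The lower p again follows from leaving out the lowest control, and no other single sample left out called Rpl36. All 10 probe sets of the gene were lower, by -0.14 to -0.02. Rpl5, the partner of Rpl11, had the same mean of 9.36 in both groups, with a 95% interval of the difference from -0.06 to 0.07.

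**Figure D3:**
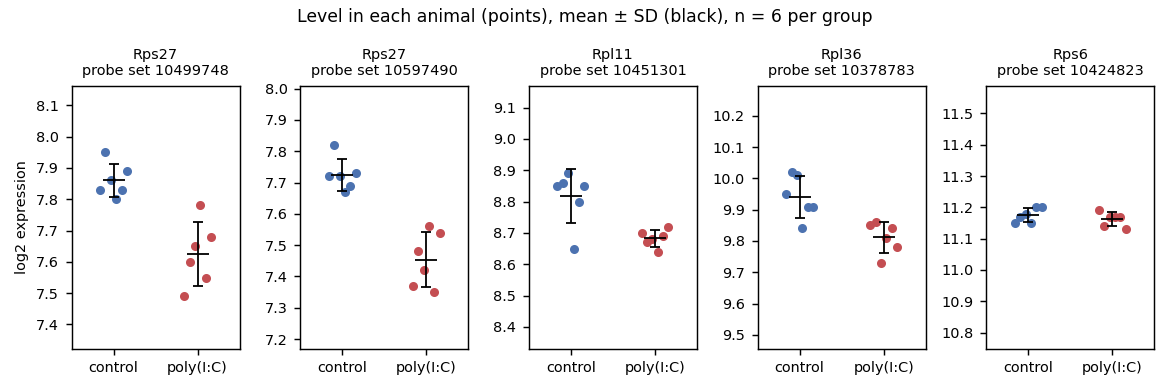
Log2 expression of each animal for both Rps27 probe sets and for 1 probe set each of Rpl11, Rpl36 and Rps6, with the group mean and SD in black (6 animals per group); every panel spans the same height of 0.84 log2 units. The groups are apart for Rps27, meet at 1 low control for Rpl11 and Rpl36, and lie on top of each other for Rps6.

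In the large subunit 0 of 47 genes were called, 31 lay below 0 and the median difference was -0.03. Its stalk, which recruits the elongation factors, is built from Rplp0, Rplp1 and Rplp2. Rplp0 went from 9.84 ± 0.08 to 9.76 ± 0.03 (SD, n = 6), with a limma adjusted p of 0.231. Another probe set of Rplp0 passed at 0.0470, and all 4 of its probe sets were lower. Rplp1 went from 10.52 ± 0.08 to 10.43 ± 0.05, with an adjusted p of 0.224 in the limma fit. Rplp2 was read by 1 dim probe set, at 4.49 and 4.52, and its interval ran from -0.09 to 0.15. For Rplp0 and Rplp1 the ranges of the groups overlapped, although for both genes the 6 poly(I:C) values were all under the mean of the controls.

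Of the 6 members with the highest differences, 4 belong to the large subunit (Rpl32l, Rpl29, Rpl10 and Rpl30), which holds 47 of the 76 members. Rpl29 had control values from 9.94 to 10.22 and poly(I:C) values from 10.10 to 10.20, a difference of 0.09 ± 0.04 with a limma adjusted p of 0.277. Rpl10, which is loaded late in large subunit assembly and is needed for subunit joining, went from 9.91 to 10.17 in the controls and from 10.03 to 10.15 in the poly(I:C) offspring, a difference of 0.09 ± 0.04 (limma adjusted p 0.290). In both genes the poly(I:C) samples sat inside the wider control range, and all 6 lay above the mean of the controls. Direction held across probe sets: all 24 of Rpl29, all 6 of Rpl10 and all 41 of Rpl21 were above 0, none past the threshold, although probe sets of a gene can share sequence and are not independent. Rpl32l had a difference of 0.11 ± 0.06 (limma adjusted p 0.337), and Rpl30, read by 1 dim probe set, one of 0.07 ± 0.04 (adjusted p 0.353).

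In the small subunit 1 of 29 genes was called, Rps27, 24 lay below 0 and the median difference was -0.03. Rps12 followed Rps27 among the core genes with -0.10 ± 0.05, from control values of 7.83 to 8.07 and poly(I:C) values of 7.76 to 7.98. These ranges overlapped, and the limma adjusted p was 0.293. Rps4l, a paralogue of Rps4x, differed by -0.09 ± 0.04 with the same adjusted p. Rps23rg1, a retrogene of Rps23, differed by 0.08 ± 0.06 (limma adjusted p 0.485).

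Rps6, the small subunit protein that S6 kinases phosphorylate and the member with the brightest probe set, hardly moved. Its control values ran from 11.15 to 11.20 and its poly(I:C) values from 11.13 to 11.19. The mean was 11.17 ± 0.02 and 11.16 ± 0.02, and the 95% interval of the difference ran from -0.07 to 0.04. Rps15, which reaches towards the decoding centre, ranged from 11.01 to 11.11 in the controls and from 10.96 to 11.03 in the poly(I:C) offspring, with an interval from -0.10 to 0.02. Rpl39, a small protein at the exit tunnel, was 10.86 ± 0.02 and 10.90 ± 0.03 with an interval from -0.02 to 0.09. These overlapping ranges belong to the 3 brightest members, and levels of different probe sets are not comparable with each other. The dimmest were Rpl39l and Rpl3l, paralogues known from testis and from muscle, and Rpl30, a core gene. Rpl39l was at 3.44 ± 0.04 and 3.36 ± 0.05, with a limma adjusted p of 0.158. Rpl3l was at 4.12 ± 0.09 and 4.14 ± 0.07 (limma adjusted p 0.857). All but 5 of the 76 members had means above the highest array median, and 1, Rpl39l, lay below the highest array's 25th percentile of 3.96.

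The probe sets of a gene largely moved alike. The members had 387 single-gene probe sets in all, and 56 members had more than 1. In 33 of the 56 all probe sets were below 0, in 11 all were above, and in 12 both signs occurred. The median span between the highest and lowest difference within a gene was 0.03. Of the 387 probe sets, 4 passed the test, all lower: both of Rps27, 1 of Rpl11 and 1 of Rplp0. Another 10 probe sets repeated the values of a second probe set of their gene.

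The mean over the 76 members was 8.72, 8.738, 8.746, 8.694, 8.763 and 8.769 in the controls. In the poly(I:C) offspring it was 8.715, 8.702, 8.677, 8.719, 8.734 and 8.724. The group means were 8.738 ± 0.028 and 8.712 ± 0.020 (SD, n = 6), and the ranges overlapped. Control replicates 5 and 6 were the highest of the 12 samples and control replicate 4 was the second lowest, while the 6 poly(I:C) values were all under the mean of the controls. The small subunit mean went from 8.699 ± 0.030 to 8.663 ± 0.025 and the large subunit mean from 8.763 ± 0.029 to 8.742 ± 0.021. Poly(I:C) replicate 3 was the lowest sample for both subunits.

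**Figure D4:**
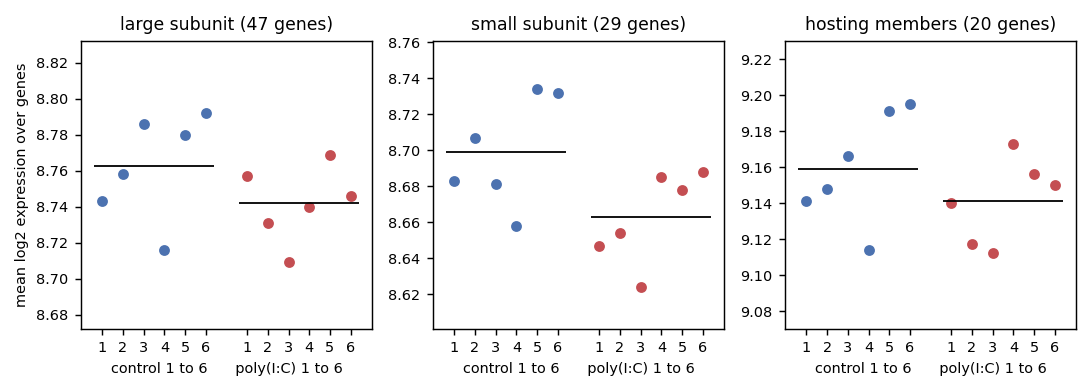
Mean log2 expression over the 47 large subunit genes, the 29 small subunit genes and the 20 members hosting small nucleolar RNAs in each of the 12 samples, with the group means as lines; every panel spans 0.16 log2 units. Controls 5 and 6 are the highest samples in the small subunit and host panels, and the groups overlap in all 3 panels.

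The size of the small shift of the members varied with the samples included. The median difference over the members, -0.032 with all samples, was -0.020 without control replicate 5, -0.021 without control replicate 6 and -0.0085 without both. Those controls had the highest means over the members, so a smaller shift without them follows from that choice. The median was -0.04 without control replicate 4 and -0.044 without poly(I:C) replicate 5. Without control replicates 5 and 6, it was -0.015 for the large subunit and -0.0064 for the small subunit. Rps27 was still the only member called in that fit. Control replicates 5 and 6 also had the highest sums of the 6 measured striatal markers, at 38.86 and 37.98. Over the other controls that sum ran from 34.91 to 36.67, and over the poly(I:C) samples from 34.42 to 35.54. All 6 striatal markers were below 0 and 1 was called lower by limma (16.7%, against 0.805% of all probe sets). All 8 oligodendrocyte and myelin markers were below 0 as well, 4 of them called lower (50%, against the same 0.805%). Their sums ran from 61.14 to 64.47 in the controls and from 57.32 to 61.84 in the poly(I:C) offspring. The dimmest striatal marker, Isl1, had a mean of 3.82, below the 25th percentile of every array (3.92 to 3.96). The mean level of the 5 neuronal markers was 10.62 to 10.67 in the controls and 10.66 to 10.72 in the poly(I:C) offspring, with none called. Nor was any of the markers of cortical excitatory neurons, astrocytes, microglia, endothelium or choroid plexus (0 called in each list by limma). The part of tissue composition in the members' differences was not tested.

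Small nucleolar RNA genes lay inside the span of 20 members, and none of these 20 hosts was called by limma. None reached an unadjusted p under 0.05, 14 lay below 0 and their median difference was -0.024. With a list of known hosts in place of position, 24 members counted as hosts, none called, with a median of -0.013, against -0.042 for the others. Among the 56 members that span no small nucleolar RNA by position 1 was called, 41 lay below 0 and the median was -0.035. Without control replicates 5 and 6 the medians were 0.0054 for the hosts and -0.016 for the other members. For all 20 hosts the 95% interval lay inside a 1.2-fold change either way.

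Several of the RNAs inside these hosts were called. In 13 hosts 16 small nucleolar RNA genes were measured by their own probe sets, of which 5 were called lower and 1 higher. The 4 hosts of the lower RNAs had differences of -0.06 to -0.02, none of them called. Because these loci lie on the same array, the difference between RNA and host was taken within each sample and compared between the groups by a 2-sided exact permutation test over all 924 splits, adjusted over the 19 pairs of probe sets; 5 pairs passed, and 0.0022 is the smallest p those splits can give. Strand was not given for either gene of a pair, so a host here is a gene that spans the RNA. A host's probe set may also read processed copies, which lack the introns that hold these RNAs, so a change relative to the host is relative to the signal of that probe set. All 3 probe sets of Rps3a1 (each at -0.02) and both of Rpl13a (-0.04 and -0.03) gave like differences. The signals of Snord16a, Snord15a and, in the poly(I:C) offspring, Snora62 lay below every array median and were dim.

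Rps3a1, a small subunit protein, spans Snord73b, a box C/D RNA. Its own values ran from 8.43 to 8.59 in the controls and from 8.43 to 8.57 in the poly(I:C) offspring, so the groups overlapped almost fully. The 95% interval of its difference ran from -0.09 to 0.05. Snord73b fell by 1.38 on the log2 scale, from 7.60 to 6.21, with a limma adjusted p of 0.00273. Relative to Rps3a1 it changed by -1.36 ± 0.24 (SE; exact permutation p = 0.0022, adjusted 0.010). The other RNA of the same gene, Snord73a, had a dim signal of 3.31 and 3.26 and was not called (limma adjusted p 0.422).

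Rpl13a, a large subunit protein also known as part of a complex that silences translation of inflammatory mRNAs, spans Snord33 and Snord35a. Its values ran from 9.38 to 9.64 in the controls and from 9.40 to 9.54 in the poly(I:C) offspring, with controls 5 and 6 on top. The 95% interval of its difference was -0.13 to 0.05. Snord33 fell by 0.86 and Snord35a by 0.48, and for both the groups did not overlap. Relative to Rpl13a the changes were -0.82 ± 0.11 and -0.44 ± 0.07 (exact permutation p = 0.0022, adjusted 0.010 for each).

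Rpl4, which lines the exit tunnel of the large subunit, was the host of the RNA called higher. Rpl4 itself was 9.05 ± 0.02 in the controls and 9.01 ± 0.03 in the poly(I:C) offspring, with an interval from -0.10 to 0.02. Snord16a inside it rose by 0.24, from 4.66 to 4.90, with a limma adjusted p of 0.0139, which was 0.28 ± 0.05 relative to Rpl4 (exact permutation p = 0.0022, adjusted 0.010). Rpsa, the small subunit protein also known as the laminin receptor, went from 9.24 ± 0.06 to 9.17 ± 0.03 without being called. Snora62 inside it, at 5.18 and 4.91, changed by -0.20 ± 0.06 relative to Rpsa (exact permutation p = 0.0087, adjusted 0.033). This call was lost without control replicate 1 or 6 (adjusted p 0.058 each) and without poly(I:C) replicate 1, 4, 5 or 6 (0.055 to 0.066).

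Rps3, a protein of the mRNA entry site, went from 8.50 ± 0.06 to 8.46 ± 0.07. Snord15a inside it was called lower, at 4.95 and 4.66 (limma adjusted p 0.0448), but its change relative to Rps3 of -0.26 ± 0.10 did not pass (exact permutation p = 0.035, adjusted 0.094). Without control replicate 5 it did, at an adjusted p of 0.025. With any other single sample left out it did not, at adjusted permutation p from 0.069 to 0.19. The other hosts with a measured RNA, among them Rpl23a with Snord42b, Rpl27a with Snora3 and Rpl39 with Snora69, had no called RNA. Rpl10 was above 0 and Snora70 inside it below 0, a relative change of -0.31 ± 0.11 that missed the threshold (exact permutation p = 0.024, adjusted 0.075).

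**Figure D5:**
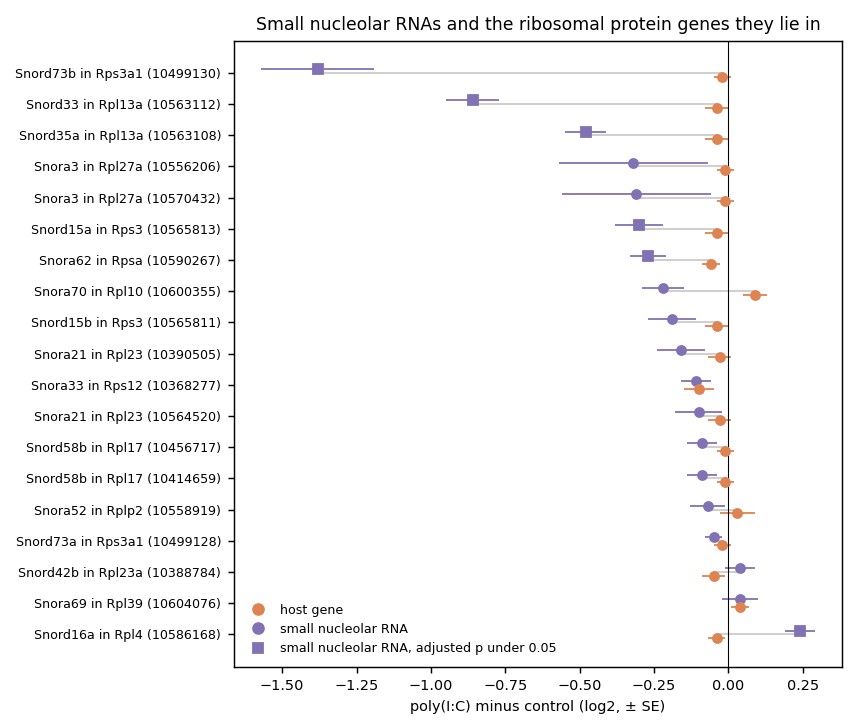
Log2 difference between poly(I:C) and control offspring, with the standard error, of each small nucleolar RNA probe set (purple, square where the adjusted p was under 0.05) and of the ribosomal protein gene that spans it (orange), for 19 pairs; a gene with several RNAs is repeated. The orange points stay between -0.10 and 0.09, while the purple points reach from -1.38 to 0.24.

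The ribosomes of mitochondria are built from a separate set of nuclear genes, and here 2 of 74 were called higher and 0 lower (2.70%, near the 2.83% of all probe sets), with 25 below 0 and a median difference of 0.02. Mrpl21 rose by 0.18 ± 0.04 (limma adjusted p 0.0379) and Mrps18b by 0.16 ± 0.04 (adjusted p 0.0433). Leaving out 1 sample at a time ended the call of Mrpl21 in 9 of 12 cases (adjusted p up to 0.0912) and that of Mrps18b in 10 of 12 (up to 0.101). Mrps27 differed by 0.16 ± 0.04 (limma adjusted p 0.0599). Their sign was opposite to that of most cytoplasmic ribosomal protein genes, and the difference between the lists was not tested.

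Of 38 genes for ribosome biogenesis none was called, 7 had an unadjusted p under 0.05 in the limma fit (18.4%, near the 19.1% of all probe sets), all of them above 0, and the median difference was 0.03. Lowest in p were Nmd3, the export adaptor of the large subunit (0.12 ± 0.04, limma adjusted p 0.0951), Taf1a, a subunit of the RNA polymerase I selectivity factor (0.15 ± 0.05, adjusted p 0.0997), and Heatr1 (0.09 ± 0.03, adjusted p 0.138). A further list held 17 translation factors and other genes taken to have mRNAs with a TOP start. None was called, 3 had an unadjusted p under 0.05 in the limma fit (17.6%, near the 19.1% of all probe sets) and the median was -0.0018. Eif3h differed by -0.09 ± 0.03 (limma adjusted p 0.149), Eif3e by 0.10 ± 0.04 (adjusted p 0.222), and Fau, which encodes a ribosomal protein fused to a ubiquitin-like protein, by -0.08 ± 0.04 (adjusted p 0.248).

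Of 13 genes of mTORC1 and S6 kinase signalling 2 were called higher and 0 lower (15.4%, against 2.83% of all probe sets), with a median of 0.02. The share rests on few genes, and no test was made over the list. Rps6kb2, an S6 kinase, had control values from 6.44 to 6.62 and poly(I:C) values from 6.61 to 6.96. The groups touched at 1 sample each, and the difference was 0.29 ± 0.05 (limma adjusted p 0.0129). Rps6ka3, a kinase of the RSK family, rose by 0.19 ± 0.05 (limma adjusted p 0.0473), a call lost in 8 of the 12 fits that leave out 1 sample (adjusted p up to 0.102). Pdcd4, an S6 kinase target that blocks translation initiation, differed by 0.08 ± 0.04 (adjusted p 0.309). Of 7 genes of the p53 response, which ribosomal stress can trigger, none was called, 3 lay below 0 and the median difference was 0.02. An unadjusted p under 0.05 in the limma fit was reached by 2 of them (28.6%, against 19.1% of all probe sets). Mdm2 differed by 0.13 ± 0.04 (limma adjusted p 0.0736), Ccng1 by 0.09 ± 0.04 (adjusted p 0.176) and Zmat3 by 0.08 ± 0.04 (adjusted p 0.277). Below 0 were Sesn2 (-0.08 ± 0.06), Phlda3 (-0.07 ± 0.05) and Eda2r (-0.07 ± 0.04), and Cdkn1a was at 0.02 ± 0.08.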

How the data were processed

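RNA of 12 samples was hybridised to Mouse Gene 1.1 ST array strips, per the labels' protocols, which name both a 3' IVT and a whole-transcript kit. The deposited table holds log2 values for 35556 probe sets; the submitters' processing notes name RMA and Partek 6.6, without role or order, and how background and scale were handled was not stated in what was used here. Gene names came from the array platform's annotation, updated by gene identifier to RefSeq GRCm38.p6. For each gene the single-gene probe set with the highest mean over the 12 samples was used. Differences, poly(I:C) minus control, came from limma 3.58.1 in R 4.3.3 over 23099 annotated probe sets, with Benjamini-Hochberg adjustment; the fit was tested on simulated data. Depth does not apply to arrays, and the number of arrays limits the precision.

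A hosting member was to span a small nucleolar RNA gene on the same strand; the gene table gives no strand, so position alone was used. The test of an RNA against its host, the hosts by position and the removal of Rps23rg1 from the core genes were chosen after seeing the data. The members and lists were chosen with earlier results of these data known. Named were members past the threshold, the 6 highest and 6 lowest differences, the 3 brightest and 3 dimmest, hosts of a called RNA, and up to 3 genes of each pathway list by lowest p; other members and list genes were named after their values were seen. Alternatives were a replicate block, weighted arrays, scaling by quantiles or by the median, filters on dim probe sets, all rows, trend and robust moderation, no moderation, probe set means, core genes only, a list of known hosts, each sample left out, and control replicates 5 and 6 left out. Protein and small nucleolar RNA sequences were not used here. Probe sets naming several genes (64 with a member symbol) were left out. Of these 64, limma called 1 higher and 3 lower (6.25%, against 2.83% of all probe sets). Their differences ran from -0.95 to 0.21, with a median of -0.032, and 76.6% lay within 0.1 of 0. Which of the named genes these differences belong to was not tested.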

Additional observations from a re-analysis of the deposited data

Results flagged for a closer look

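Among the named genes, 84 groups of 6 samples were screened for a sample set apart from the rest, by its gap to the nearest sample over the range of the group, and 4 were found; chance alone gives about 1 in 20 groups. Rps15 in control replicate 3 was 11.11, with the other controls between 11.01 and 11.05. Rps27l in control replicate 5 was 6.54, with the others between 6.30 and 6.37. Ccng1 in control replicate 1 was 9.18, with the others between 9.29 and 9.32. Pdcd4 in poly(I:C) replicate 6 was 9.19, with the others between 9.29 and 9.32.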

How the results depend on the processing

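No member was called higher, and no hosting member was called, under any alternative run. The number of members called lower was 3 at or above the 50th brightness percentile and with trend and robust moderation (Rps27, Rpl11 and Rpl36), 2 with quantile normalization (Rps27 and Rpl11), 0 without variance moderation (Rps27 adjusted p 0.0618), and 1 to 3 with single samples left out, 3 without control replicate 4. Rps27 kept an adjusted p of 0.00623 to 0.0387 over the single samples left out. Over all probe sets 467 were higher and 186 lower with the values as deposited, 298 and 232 after median centring, 239 and 285 after quantile normalization, 296 and 118 with all rows tested, and 94 and 28 without moderation; with single samples left out the counts ran from 154 to 586 higher and from 73 to 232 lower. The median difference over all probe sets was 0.014 and 0.026 at or above the 25th and 50th brightness percentiles, -0.0073 after median centring and -0.0098 after quantile normalization. The median over the members was -0.043 and -0.051 after those scalings, and -0.044 to -0.020 with single samples left out. Without control replicates 5 and 6 the median of the hosting members turned to 0.0054, Rpl13a to 0.013, Rps3a1 to 0.0073, Rps6 to 0.00038 and Rpl3l to -0.006; Rpl3l ran from -0.016 to 0.035 with single samples left out. The cause of these changes was not tested. The same-numbered samples did not pair: their deviations correlated at -0.09 to 0.11, and with a replicate block 346 probe sets were higher and 190 lower, with 1 member lower (Rps27, adjusted p 0.0256). After quantile normalization Snora62 missed the threshold against Rpsa (adjusted p 0.062). Dim probe sets, such as those of Rplp2 and Rpl30, limit what can be said of those genes.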
